A study of Homo sapiens with 16 samples.

Results

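The genes described here are 9 members of the MHC class I antigen presentation pathway, taken as a list of gene names: the class I heavy chains HLA-B, HLA-C and HLA-E, the light chain B2M, the peptide transporter subunits TAP1 and TAP2, the peptide loading chaperone TAPBP, and the immunoproteasome subunits PSMB8 and PSMB9. The list itself uses no measured value, but it was chosen with earlier results of these data known. All 9 were found among the 27650 genes of one bulk RNA table of culture days and among the 36601 genes of both single-cell matrices. Of the 9, 8 were found among the 20121 genes of a smaller table of culture days and among the 21093 genes of the TNFα table, where PSMB9 has no row and was not analysed.

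The organoids were kidney organoids differentiated from a single human embryonic stem cell line, UM77-2, for which the labels name no added allele, so the libraries share one genotype and one line. Bulk RNA was taken from isolated spheroids. A first set held 1 library each from day 21 (D21), day 25 (D25) and day 29 (D29). A second set held 2 libraries per day, Org1 and Org2, from cultures refed daily from day 17. The TNFα set held 1 library each from spheroids given 5 ng/ml TNFα for 24 h or 48 h and from their vehicle controls (VC), all collected on D25. Single cells came from whole-well cultures on D24, 1 library after 24 h of TNFα and 1 after 24 h of vehicle, and a further single-cell sample of D25 was not analysed here. The 13 bulk libraries held 19073609 to 59246286 reads, so genes with few reads, above all PSMB9, carry a much wider counting error than B2M or TAPBP. The sources used here do not give how Org1 and Org2 were made, so p-values in the second set measure the spread between these libraries, which may be technical. The defining markers of podocytes, proximal tubule and stroma were present in every bulk library. Of a leukocyte list of 7 genes, PTPRC, CD68, TYROBP and CD3E had no row in any bulk table. AIF1 had a row in every bulk table, CD14 in those of the second set and the TNFα set, and CD79A in that of the second set. CD68 was seen in both single-cell libraries, so a missing row does not show that a gene was absent.

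MHC class I molecules display peptides from proteins made inside the cell to cytotoxic T cells. The proteasome cuts those proteins, the TAP1 and TAP2 dimer carries the peptides into the endoplasmic reticulum, and tapasin, the product of TAPBP, holds the empty heavy chain and B2M beside the transporter until a peptide binds. Inflammatory cytokines are known to raise the pathway in many epithelial cells and to replace the constitutive catalytic subunits PSMB5 and PSMB6 with PSMB8 and PSMB9, and in kidney epithelium class I molecules are what recipient T cells meet in a graft.

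On GRCh38 with GENCODE 44, 8 of the 9 genes lie on chromosome 6 within the MHC, from HLA-E (ENSG00000204592, chr6:30489509-30494194, plus strand) to TAPBP (ENSG00000231925, chr6:33299694-33314284, minus strand). Between them lie HLA-C (ENSG00000204525, chr6:31268749-31272130) and HLA-B (ENSG00000234745, chr6:31353872-31367067), both on the minus strand. TAP2 (ENSG00000204267, chr6:32821833-32838739), PSMB8 (ENSG00000204264, chr6:32840717-32844679) and TAP1 (ENSG00000168394, chr6:32845209-32853816) follow one another on the minus strand, and PSMB9 (ENSG00000240065, chr6:32844136-32859851) overlaps PSMB8 and TAP1 on the plus strand. B2M (ENSG00000166710, chr15:44711358-44718851, plus strand) is the member on chromosome 15. Exons of HLA-B share 47.3% of their bases with other annotated genes, mostly with the pseudogene DHFRP2, TAPBP shares 21.0%, TAP2 19.5%, PSMB8 17.3%, TAP1 14.2% and PSMB9 5.21%. The overlaps of HLA-B with DHFRP2 and of TAP2 with ENSG00000250264 lie on the same strand, where counting by strand would not separate the reads. For overlaps on opposite strands, the sources used here do not state whether reads were counted by strand. The part of shared bases in the counts was not tested. The heavy chains also resemble each other, but few of their 50-base windows were shared with any other HLA gene, namely 1.09% for HLA-B, 6.39% for HLA-C and 4.76% for HLA-E.

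Because the members moved together after TNFα, the 250 bases before each RefSeq start site were searched on both strands for the NF-κB consensus and for GAAANNGAAA, the repeat bound by interferon regulatory factors. A promoter sequence was at hand for 8 of the 9 members, HLA-E being the exception. These members have 10 windows in all, since TAP1 and PSMB8 have a pair each. The NF-κB consensus was found in 5 of the 10 windows, each of a different member, and in 5.21% of 35116 promoter windows of the genome. GAAANNGAAA was found in 4 of the 10, again of different members, and in 3.02% of windows, and both motifs together in 0.117% of windows. The stretches that hold the matches are shown 5′ to 3′ on the strand of the gene, from RefSeq on GRCh38.p14, with the matched letters in capitals. They are shown because NF-κB and interferon regulatory factors are known to drive class I genes. They lie at chr6:31357337-31357366 for HLA-B, chr6:31272245-31272274 for HLA-C, chr6:32853757-32853786 and chr6:32853816-32853845 for TAP1, chr6:32838778-32838807 for TAP2, chr6:33314115-33314144 and chr6:33314079-33314108 for TAPBP, all on the minus strand, and at chr15:44711372-44711401 on the plus strand for B2M.
HLA-B, NF-κB consensus: gcgcagcgttGGGGATTCCCCactcccctg
HLA-C, NF-κB consensus: cgccgcgttgGGGATTCTCCactcccctga
TAP1, NF-κB consensus: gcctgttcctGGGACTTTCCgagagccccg
TAP1, GAAANNGAAA on the other strand: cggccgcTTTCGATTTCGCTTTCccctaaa
TAP2, GAAANNGAAA: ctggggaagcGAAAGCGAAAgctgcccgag
TAPBP, NF-κB consensus: taaccagagcGGGGATTTCCaccgcccctc
TAPBP, overlapping GAAANNGAAA matches: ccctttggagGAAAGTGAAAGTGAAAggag
B2M, GAAANNGAAA followed by the NF-κB consensus on the other strand: aGAAAAGGAAACTGAAAacgGGAAAGTCCC

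Of the patterns as searched, TAP1, TAPBP and B2M carried both, HLA-B and HLA-C the NF-κB consensus alone, and TAP2 GAAANNGAAA alone. Stretches that differ from a pattern by some letters were not counted, so a window without a match may still hold a related site. PSMB8 and PSMB9 had neither in their windows. Counted from 1 at the first letter of the 10-letter match, the HLA-B and HLA-C matches differ by C8T. The letters around these matches are also largely alike, so the HLA-B and HLA-C matches are not independent finds. The TAP1 and PSMB9 start sites lie 488 bases apart and point away from each other. The TAP1 matches lie between these start sites but outside the PSMB9 window. The lack of a match for PSMB9 thus holds only for the window searched. A match is a description of the letters and was not tested as a binding site.

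The TNFα set addressed how organoids answer an inflammatory cytokine. Every member in that table rose. HLA-B and TAP1 rose by the widest margin, PSMB8, TAPBP and B2M more than doubled on the scale of the table, and TAP2, HLA-C and HLA-E rose by less. All 8 members were called higher by limma with Benjamini-Hochberg adjustment over all genes, against 8.42% of the 21093 genes called higher. With 1 library per treatment and time, SEs and p-values here rest on how the response differed between times and on variance shared across genes. No spread between replicate libraries was measured. The median difference over the 8 members was 1.18 on the log2 scale, against -0.03 over all genes. Values are log2(CPM + 1), where CPM is a gene's reads scaled to a common library total, and a fold on that scale understates the change of a gene with few reads.

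Among the heavy chains, HLA-B stood at 3.94 in VC 24 h, 6.88 in TNFα 24 h, 3.96 in VC 48 h and 6.69 in TNFα 48 h. The VC libraries nearly coincided and both TNFα libraries lay far above them, with no overlap. In CPM this was an 8.15-fold difference at 24 h and a 7.03-fold difference at 48 h, and the fitted difference was 2.84 ± 0.077 (SE, adjusted p = 3.97e-14 in limma). HLA-C started much higher, at 6.80 and 6.83 in VC, and reached 7.65 at 24 h and 7.41 at 48 h of TNFα. It rose by 0.72 ± 0.070 (SE, adjusted p = 6.15e-07 in limma), less than HLA-B. HLA-E, the non-classical heavy chain that presents leader peptides to natural killer cell receptors, was 6.604 and 6.65 in VC and 6.90 and 6.93 in TNFα. Its difference was 0.29 ± 0.062 (SE, adjusted p = 0.00290 in limma), and its TNFα libraries were 1.23-fold and 1.22-fold above VC in CPM.

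B2M, the light chain that all these heavy chains need to reach the cell surface, was 6.70 in VC 24 h, 7.90 in TNFα 24 h, 6.69 in VC 48 h and 7.71 in TNFα 48 h. Both TNFα libraries lay above both VC libraries, and B2M rose by 1.11 ± 0.065 (SE, adjusted p = 1.05e-09 in limma). TAP1 was 2.94 and 3.02 in VC and 5.59 and 5.32 after 24 h and 48 h of TNFα. It rose by 2.48 ± 0.099 (SE, adjusted p = 6.20e-12 in limma), a 7.08-fold difference in CPM at 24 h and 5.50-fold at 48 h. Its partner in the transporter moved less. TAP2 was 2.25 in VC 24 h, 3.10 in TNFα 24 h, 2.03 in VC 48 h and 2.82 in TNFα 48 h, a rise of 0.82 ± 0.118 (SE, adjusted p = 5.96e-05 in limma). TAPBP, the tapasin gene, was 6.13 and 6.18 in VC and 7.51 and 7.30 in TNFα, and rose by 1.25 ± 0.070 (SE, adjusted p = 6.17e-10 in limma).

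PSMB8, the immunoproteasome subunit that takes the place of PSMB5, was 3.60 and 3.67 in VC and 5.09 and 4.94 in TNFα. It rose by 1.38 ± 0.092 (SE, adjusted p = 5.85e-09 in limma). PSMB5 itself differed by 0.04 (adjusted p = 0.736 in limma) and PSMB6, the counterpart of PSMB9, by -0.04 (adjusted p = 0.807 in limma). Per kilobase of exon, PSMB8 stood at 4.23% and 4.25% of PSMB5 in VC, and at 11.7% and 10.9% after 24 h and 48 h of TNFα. The share was thus higher in both TNFα libraries, with PSMB5 nearly level.

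**Figure D1:**
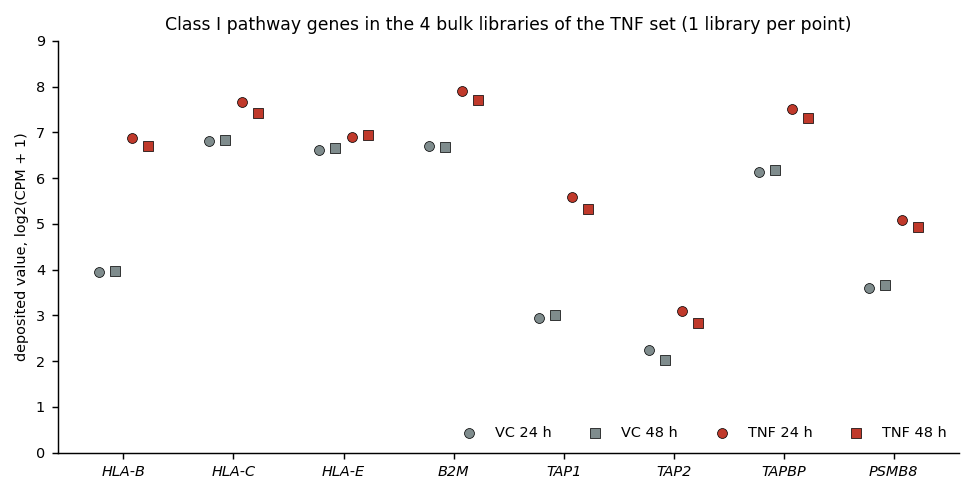
Level of each of the 8 members listed in the TNFα table, as log2(CPM + 1) on the vertical axis, in the 4 libraries (VC and TNFα, at 24 h and 48 h, 1 point each). For every member both TNFα libraries lie above both VC libraries, from HLA-B (3.94 to 6.88 at 24 h) down to HLA-E (6.604 to 6.90 at 24 h).

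Set against each time alone, where 1 library faced 1 library and no test was possible, 5 of the 8 members were at least 1 log2 unit higher at 24 h, against 1.28% of genes, and 5 of 8 at 48 h, against 1.07% of genes. Both counts were made up of HLA-B, TAP1, PSMB8, TAPBP and B2M, the last with a difference of 1.02 at 48 h. The difference at 48 h was smaller than at 24 h for all 8 members, by 0.01 for HLA-E to 0.35 for TAP1, with a member median of -0.22 against 0.02 over all genes. No test of that change between times was possible. In VC the same members moved by -0.22 (TAP2) to 0.08 (TAP1) between the times.

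The times served as replicates in the fit, which left 1 residual degree of freedom beside the information shared across genes. HLA-E was no longer called without the time term (adjusted p = 0.0724 in limma) or without a trend of the variance with the level (adjusted p = 0.0553 in limma). Without the time term, TAP2 was lost as well when any 1 library was also left out, with adjusted p between 0.0613 and 0.178 in limma. Where leaving out a library left a group with 1, here and for the days, the other groups supplied the spread and the lone library was assumed to vary like them. Podocyte and proximal tubule marker genes were lower in the TNFα libraries, with summed podocyte levels of 4511 and 3360 CPM against 7439 and 6935 CPM in VC and summed proximal tubule levels of 453 and 501 CPM against 949 and 936 CPM. Stromal markers summed to 8428 and 8807 CPM in TNFα against 6702 and 8244 CPM in VC. The leukocyte list, of which 2 of 7 genes had a row, summed to 9.86 and 6.18 CPM in TNFα against 13.3 and 12.1 CPM in VC, and all 7 endothelial genes to 194 and 187 CPM against 226 and 239 CPM. The part of these shifts in the result was not tested, and in bulk RNA fewer cells of a type and less RNA per cell cannot be told apart.

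Around the members, 6 lists of related genes were examined, to be read against the 8.42% of all genes called higher and the 10.8% called lower after TNFα. Of the 6 peptide trimming and loading genes, 3 rose and none fell: ERAP2 by 1.47 (adjusted p = 3.90e-07) and ERAP1 by 0.58 (adjusted p = 2.79e-06), which are aminopeptidases that trim peptides in the endoplasmic reticulum, and TAPBPL, a tapasin-related peptide editor, by 0.77 (adjusted p = 5.27e-05), all in limma. Of the 4 immunoproteasome partners and PA28 genes, 3 rose: PSME2 by 0.62 and PSME1 by 0.32, the subunits of the PA28 proteasome activator, and PSMB10, the remaining catalytic immunoproteasome subunit, by 0.48. Of the 14 constitutive 20S proteasome genes, 1 rose, namely PSMA6 by 0.41, a share near that over all genes, and none fell. The difference between the lists was not tested. Medians were 0.29 for trimming and loading, 0.40 for the immunoproteasome partners and 0.03 for the constitutive 20S genes, beside -0.03 over all genes.

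Of the 8 other class I and class I-like genes, 4 rose and 1 fell, the latter a share near the 10.8% of all genes. HLA-F, a non-classical class I gene, rose by 0.71, the stress ligands MICA and MICB by 0.47 and 0.43, and the lipid-presenting CD1D by 0.29. FCGRT, the neonatal Fc receptor, fell by 0.24 and is named here after its value was seen. Among the class I transcription regulators in the table, IRF1, a factor of the interferon regulatory family, rose by 1.47 and RFX5, the DNA-binding subunit of the RFX complex, by 0.44. IRF1 was 4.22 and 4.14 in VC and 6.17 after 24 h but 5.14 after 48 h of TNFα, so both TNFα libraries were above VC and the later one was nearer to it. NLRC5, the class I transactivator, has no row in this table and was not analysed here.

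Of the 7 genes of the class II pathway, 3 rose. CD74, the invariant chain, rose by 1.46 (adjusted p = 2.63e-11 in limma), from 5.97 and 6.10 in VC to 7.51 and 7.48 in TNFα. HLA-DMB, a peptide exchange chaperone, rose by 0.50 and HLA-DPB1 by 0.38. In all, 18 genes of the 6 lists were called. Without the time term 9 of those 18 were still called, and 4 or 5 when 1 library was also left out.

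**Figure D2:**
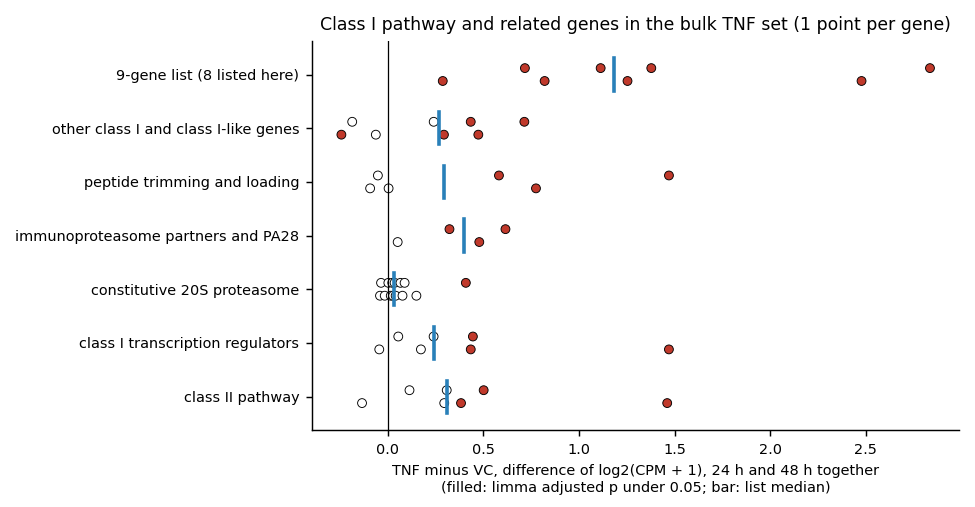
Difference between TNFα and VC in log2(CPM + 1) from the limma fit (horizontal axis) for each gene of the member list and the 6 related lists (rows), with called genes marked. HLA-B (2.84) and TAP1 (2.48) lie above every gene of the related lists, of which ERAP2 (1.47), IRF1 (1.47) and CD74 (1.46) lie above the other 6 members, and 13 of the 14 constitutive 20S proteasome genes were not called.

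The culture days addressed how the pathway stood as organoids aged without added cytokine. Between D21 and D29 of the second set, 6 of the 9 members rose, against 10.0% of 27650 genes called higher, and none fell, against 8.33% called lower. TAP1, PSMB8, B2M and HLA-B rose by more than 1 log2 unit. HLA-E and PSMB9 rose by less on the log2(CPM + 1) scale, where PSMB9 lies near the floor. TAP2, HLA-C and TAPBP did not pass the test. The median difference was 0.50 over the members and -0.02 over all genes.

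TAP1 was 2.16 and 1.26 in the D21 libraries (Org1 and Org2), 2.74 and 2.90 at D25, and 3.32 and 3.57 at D29. The days did not overlap, but the D21 libraries lay far apart. The D29 minus D21 difference was 1.73 ± 0.28 (SE, adjusted p = 0.00410 in limma). PSMB8 was 1.94 and 1.94 at D21, 2.90 and 3.004 at D25, and 3.17 and 3.61 at D29, also without overlap, with a difference of 1.45 ± 0.18 (SE, adjusted p = 0.00124 in limma).

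B2M was 5.21 and 4.80 at D21, 5.86 and 5.64 at D25, and 6.15 and 6.32 at D29. It rose by 1.23 ± 0.14 (SE, adjusted p = 0.000977 in limma), and no day overlapped another. HLA-B was 2.77 and 2.66 at D21, 3.41 and 3.45 at D25, and 3.59 and 4.28 at D29, where Org2 stood well above Org1. Its difference was 1.22 ± 0.21 (SE, adjusted p = 0.00583 in limma). Without the D21 Org2 library HLA-B was no longer called (difference 1.16, adjusted p = 0.0539 in limma).

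HLA-E was 5.84 and 5.72 at D21, 5.94 and 6.05 at D25, and 6.06 and 6.32 at D29, with narrow steps and no overlap between days. Its difference was 0.41 ± 0.099 (SE, adjusted p = 0.0251 in limma), and the call was lost without D21 Org1, D21 Org2 or D29 Org2, with adjusted p of 0.0772, 0.167 and 0.101 in limma, and without the variance trend, with 0.0611. PSMB9 rested on few reads, 1 and 1 at D21, 4 and 2 at D25, and 10 and 11 at D29. It rose by 0.38 ± 0.085 (SE, adjusted p = 0.0182 in limma). The PSMB9 call held in 8 of 12 alternatives, and the losses included the fits without the same 3 libraries. Its mean was 0.0412 CPM at D21 and 0.364 CPM at D29, a change that the added 1 of log2(CPM + 1) narrows. Over the alternatives, some of them on other scales, its difference ranged from 0.34 to 3.18. With so low a mean, the alternative that required a mean of at least 1 CPM did not test PSMB9.

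TAP2 was 1.45 and 1.17 at D21, 1.49 and 1.96 at D25, and 1.87 and 1.75 at D29, with a D29 minus D21 difference of 0.50 (adjusted p = 0.129 in limma). HLA-C was 5.75 and 5.80 at D21, 5.71 and 5.89 at D25, and 5.82 and 5.96 at D29, with a difference of 0.11 (adjusted p = 0.438 in limma) and days that overlapped between D21 and D25 and between D25 and D29. TAPBP was 6.90 and 6.96 at D21, 6.97 and 7.08 at D25, and 6.95 and 6.83 at D29, and its D29 minus D21 difference was -0.04 (adjusted p = 0.778 in limma). TAPBP and HLA-C, which rose by 1.25 and 0.72 after TNFα, thus did not pass the test over the days, and whether the TNFα and day differences differ was not tested.

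**Figure D3:**
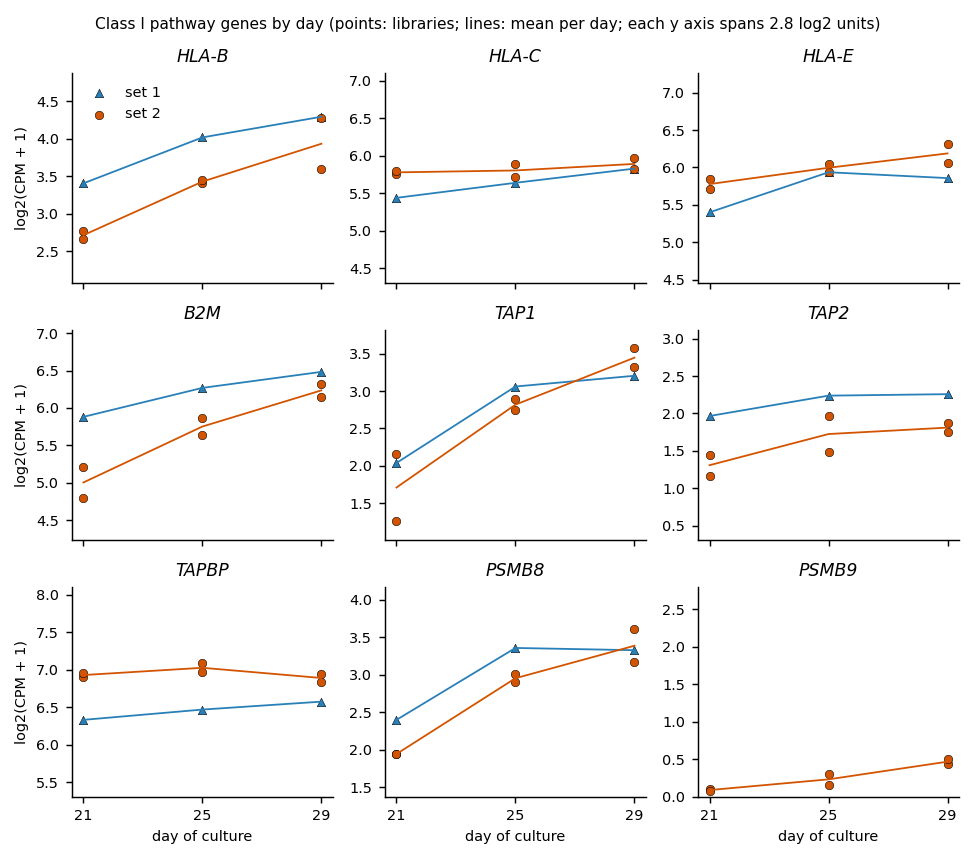
Level of each member as log2(CPM + 1) (vertical axis) on D21, D25 and D29 (horizontal axis) in the libraries of the second set (2 per day) and the first set (1 per day). TAP1, PSMB8, B2M and HLA-B lie above their D21 levels on D29 in either set, while TAPBP lies between 6.83 and 7.08 on all 3 days of the second set.

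Over the first interval, D21 to D25, 2 of the 9 members rose against 3.39% of genes called higher: B2M by 0.75 (adjusted p = 0.0257) and PSMB8 by 1.01 (adjusted p = 0.0187), both in limma. TAP1 differed by 1.11 (adjusted p = 0.0647) and HLA-B by 0.71 (adjusted p = 0.105) without passing the test in limma. No member was called without D21 Org2, D25 Org1 or D25 Org2, and the count of 2 became 4 in edgeR and in DESeq2, where HLA-B and TAP1 also passed. PSMB8 was also lost without D21 Org1 (adjusted p = 0.104), where TAP1 passed (adjusted p = 0.0196), and HLA-B passed without D29 Org1 or D29 Org2 (adjusted p = 0.0139 and 0.0160), all in limma. Over the second interval, D25 to D29, 0 of 9 members passed in limma, against 1.25% of genes called higher. At an unadjusted p under 0.05 there were 4 members in limma, beside 4820 of all 27650 genes. After adjustment edgeR and DESeq2 each called 1 member, B2M. Without D29 Org1, limma called HLA-B, with a difference of 0.85 (adjusted p = 0.0169), with 1 library at D29 and the spread taken from the other days. Both libraries of the later day lay above both of the earlier day for 8 of 9 members in D25 against D21 (24.4% of all genes), 6 of 9 in D29 against D25 (22.1% of all genes) and 8 of 9 in D29 against D21 (27.1% of all genes).

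The first set, with 1 library per day and no test, gave D29 minus D21 differences above 0 for all 8 members listed. They were 1.16 for TAP1, 0.93 for PSMB8, 0.89 for HLA-B, 0.60 for B2M, 0.46 for HLA-E, 0.39 for HLA-C, 0.29 for TAP2 and 0.24 for TAPBP. Of the 8, 1 reached 1 log2 unit, against 3.09% of genes. Among the 8 members listed in both sets, TAP1 and PSMB8 had the widest differences in each on the log2(CPM + 1) scale. The member median was 0.53 here against -0.0045 over all genes.

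Per kilobase of exon, PSMB8 stood at 1.51% and 1.43% of PSMB5 at D21, 3.68% and 3.67% at D25 and 4.14% and 5.64% at D29 of the second set, and at 2.48%, 5.17% and 5.57% on the 3 days of the first set. PSMB5 differed by 0.02 (adjusted p = 0.888) and PSMB6 by -0.05 (adjusted p = 0.772) between D21 and D29 in limma. PSMB9 was 0.0361% and 0.0274% of PSMB6 at D21 and 0.266% and 0.313% at D29. The immunoproteasome subunits were thus a small share of their constitutive counterparts on every day.

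Over the same days the 9 stromal marker genes summed to 4937 and 4349 CPM at D21, 11100 and 11477 CPM at D25 and 14336 and 17920 CPM at D29 of the second set. Podocyte markers summed to 11881 and 12458 CPM at D21 and to 8404 and 4012 CPM at D29, and proximal tubule markers to 1093 and 908 CPM and then 568 and 439 CPM. D29 Org2, the library with the higher HLA-B, had the higher stromal and the lower podocyte sum of the D29 pair. The leukocyte list, with 3 of 7 genes listed, summed to 6.87 and 6.74 CPM at D21 and 3.76 and 2.53 CPM at D29, and the endothelial list to 208 and 229 CPM and then 136 and 126 CPM. The part of these marker levels in the members' differences was not tested.

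Of the related lists between D21 and D29, the 8 other class I and class I-like genes had 4 that rose and 1 that fell, beside 10.0% of all genes called higher and 8.33% called lower. MICA rose by 1.08, HFE, an iron regulator of class I fold, by 0.92, and MR1, which presents vitamin B metabolites, by 0.84, while CD1D fell by 0.78. Among the 6 trimming and loading genes ERAP2 rose by 0.99, and among the 8 regulators NLRC5 rose by 0.64 on 4 to 27 reads per library. None of the 4 immunoproteasome partners and PA28 genes was called in limma, 1 of the 14 constitutive 20S genes fell (PSMA2, by 0.62), and 1 of the 7 class II genes fell (HLA-DMB, by 1.63). Each single fall is near the share of genes called lower. HLA-DMB thus fell over the days and rose after TNFα, with calls in separate sets of libraries. Of the 9 list genes called, 5 were still called when D21 Org1 or D21 Org2 was left out and 7 without D29 Org2.

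The single-cell libraries addressed which cells carried the members. VC gave 11906 cells with a median of 6358.5 UMIs (unique transcript molecules counted) and TNFα 23160 cells with a median of 2599 UMIs. They shared 74 barcodes. Clustering of the 35066 cells, with the members and all genes of the lists left out, gave 14 clusters, of which 10 fell into 7 classes named from marker genes and 4 stayed unnamed. These names were rebuilt here and the study's own cell labels were not used. The podocyte-like class held 1391 VC and 4809 TNFα cells, the proximal tubule-like class 1299 and 3558, and the stromal-like class 2598 and 4242. With 1 library per condition there was no test. Levels are UMIs summed over a class and scaled to the same total (CPM), and 95% intervals are exact and cover counting error only.

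Marker sums of a class found in other classes also differed between libraries, and are given as shares of the own-class sum. Own-class sums were lower in TNFα for podocyte (9499 to 4847 CPM), stromal (7551 to 5065), proximal tubule (1445 to 888) and neuronal markers (11441 to 6486). A share can therefore rise without more RNA elsewhere. Stromal markers in proliferating-like cells were 3156 CPM in VC and 3143 CPM in TNFα, whereas podocyte markers in neuronal-like cells were 271 and 728 CPM. Podocyte markers in the 6 other named classes summed to 1.04% to 5.14% of their podocyte-like level in VC and to 8.83% to 15.02% in TNFα. Stromal markers spanned 5.55% to 41.8% and then 22.5% to 62.1%, proximal tubule markers 2.09% to 8.39% and 6.17% to 15.2%, neuronal markers 1.52% to 4.99% and 6.54% to 10.1%, and muscle markers 0.941% to 2.71% and 2.16% to 4.75%. The part of such shared RNA in the class ratios was not tested.

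Over all cells 8 of the 9 members were at least 2-fold higher in TNFα, against 2.42% of genes. Of the kidney classes, taken below in the order podocyte-like, proximal tubule-like, stromal-like, the first had 8 of 9 members at 2-fold or more (7.58% of genes), the second 5 of 9 (4.56% of genes) and the last 6 of 9 (3.65% of genes). Median ratios over the members were 3.52, 2.01 and 3.22 in the 3 classes, against 0.988, 1.04 and 0.966 over all genes. HLA-B, TAP1, TAPBP and PSMB9 passed 2-fold in each of the 3 classes, and HLA-E in none of them.

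HLA-B was lowest in podocyte-like cells of VC, at 2.21 CPM, with 7.25 CPM in proximal tubule-like and 13.8 CPM in stromal-like cells. In TNFα it was 38.3, 44.3 and 98.2 CPM. The ratio was 17.4 (95% interval 12.2 to 25.6) in podocyte-like, 7.11 (6.12 to 8.29) in stromal-like and 6.11 (5.08 to 7.39) in proximal tubule-like cells, so the podocyte-like interval lay above the other two. When cells were gated on marker genes without clusters, the podocyte-like ratio was 11.2 and the proximal tubule-like ratio 8.34. With finer clustering, 731 TNFα cells of the podocyte-like class formed a cluster with 1 VC cell, so ratios in that class also compare clusters. HLA-C was 46.7, 92.8 and 46.5 CPM in VC and 152, 107 and 149 CPM in TNFα. Its ratios were 3.26 in podocyte-like, 3.22 in stromal-like and 1.15 in proximal tubule-like cells, and the class with the highest VC level had the lowest ratio.

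HLA-E was 35.4, 40.5 and 49.1 CPM in VC and 38.4, 40.0 and 49.1 CPM in TNFα of the 3 classes in the same order. Its ratios were 1.09 (0.969 to 1.22), 0.988 (0.888 to 1.10) and 1.001 (0.902 to 1.11), intervals that hold 1 and end at or below 1.22. B2M was the most abundant member, at 184, 281 and 660 CPM in VC and 647, 467 and 1182 CPM in TNFα, with ratios of 3.52, 1.66 and 1.79. In VC podocyte-like cells held the least B2M of the 3 classes, and in TNFα proximal tubule-like cells did.

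TAP1 was 1.86, 1.11 and 2.48 CPM in VC and 13.4, 8.39 and 15.3 CPM in TNFα, with ratios of 7.19 (4.83 to 11.1), 7.55 (4.74 to 12.6) and 6.18 (4.32 to 9.09) whose intervals overlap. TAP2, with 37 to 81 VC UMIs per class, had ratios of 2.796, 2.01 and 1.97. For the marker-gated proximal tubule-like cells the TAP2 ratio was 0.996. TAPBP was 67.5, 35.2 and 33.2 CPM in VC and 191, 92.9 and 114 CPM in TNFα, with ratios of 2.82, 2.64 and 3.44. Podocyte-like cells held the most TAPBP of all 7 named classes in both libraries.

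PSMB8 was 9.65, 21.4 and 25.8 CPM in VC and 47.5, 38.9 and 63.5 CPM in TNFα, with ratios of 4.92 (4.12 to 5.92), 1.81 (1.60 to 2.06) and 2.46 (2.18 to 2.78). PSMB9 was seen in 4, 6 and 10 VC UMIs and 159, 60 and 283 TNFα UMIs, and its ratios of 29.8 (11.4 to 111), 11.8 (5.13 to 33.5) and 25.6 (13.7 to 54.0) are wide for that reason. As UMIs, PSMB8 stood at 2.00%, 5.68% and 7.45% of PSMB5 in VC and at 10.8%, 10.7% and 16.7% in TNFα. PSMB9 stood at 0.0907% of PSMB6 in VC and 2.42% in TNFα over all cells. PSMB5 ratios were 0.910, 0.965 and 1.10 and PSMB6 ratios 0.903, 0.937 and 1.13, so the constitutive counterparts stayed within 1.13-fold of level.

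**Figure D4:**
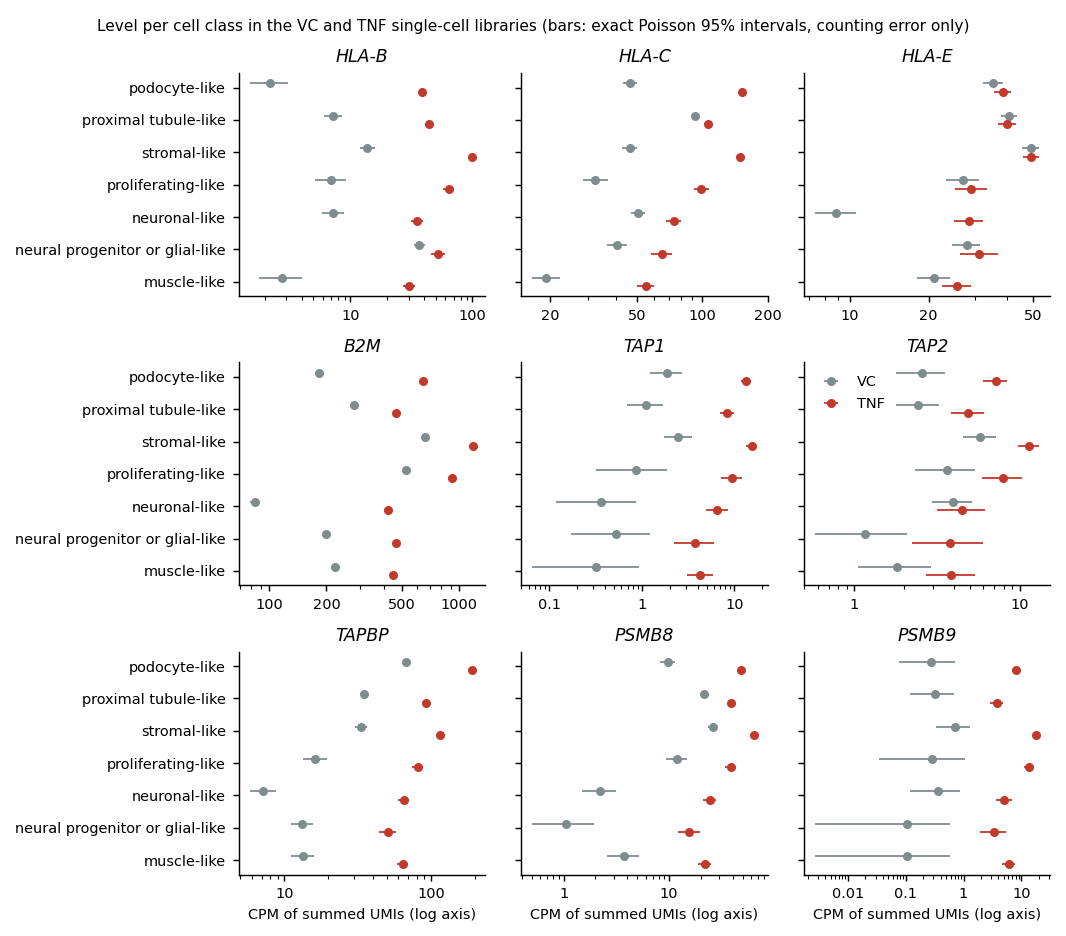
Level of each member in CPM (logarithmic horizontal axis) in the 7 named cell classes (vertical axis) of the D24 VC and TNFα libraries, with exact 95% intervals for counting error. HLA-B spans 2.21 to 36.7 CPM over the classes in VC and 30.4 to 98.2 CPM in TNFα.

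Outside the kidney classes the order of levels differed. HLA-B in VC was highest in neural progenitor or glial-like cells, at 36.7 CPM, above stromal-like cells at 13.8 CPM with no overlap of intervals, whereas the proximal tubule-like, neuronal-like and proliferating-like levels next in order (7.25, 7.24 and 6.93 CPM) overlapped. In those neural progenitor or glial-like cells the HLA-B ratio was 1.42 (1.21 to 1.68), the lowest of the 7 classes. HLA-B levels spanned 16.6-fold over the named classes in VC and 3.23-fold in TNFα, and every other member also spanned less in TNFα, for example 9.42-fold and 3.76-fold for TAPBP. The summed podocyte, proximal tubule, stromal, neuronal and muscle markers also spanned less in TNFα, so narrower spans were not particular to the members. The lowest podocyte marker sum was 1.04% of the podocyte-like level in VC and 8.83% in TNFα. The part of RNA shared between classes in these spans was not tested. Of the 7 named classes, stromal-like cells held the highest level of HLA-E, B2M, TAP1, TAP2, PSMB8 and PSMB9 in both libraries. Their interval lay clear of the next named class for HLA-E and B2M in both libraries and for PSMB8 in TNFα. For TAP1, TAP2 and PSMB9 in both libraries, and for PSMB8 in VC, it overlapped the next named class. PSMB9 in VC rested on 10 UMIs there. One unnamed cluster of low VC depth lay above stromal-like cells in VC for HLA-E, at 67.7 CPM. It also did so for TAP1, TAP2 and PSMB9, on 3, 4 and 1 UMIs. Another unnamed cluster held 5.79 CPM of TAP2 in VC, beside 5.74 CPM in stromal-like cells.

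Neuronal-like cells had the lowest VC levels of HLA-E (8.85 CPM), B2M (83.8 CPM) and TAPBP (7.17 CPM), and ratios of 3.21, 5.06 and 9.11. HLA-E reached 2-fold in no other named class. In neuronal-like cells podocyte markers stood at 2.85% of their podocyte-like level in VC and 15.02% in TNFα, and stromal markers at 7.61% and 32.5% of their stromal-like level. The background there was 6.91% of genes at 2-fold or more. Muscle-like cells lay mostly in different clusters of the 2 libraries, 950 of 1097 VC cells in one and 1472 of 2593 TNFα cells in another, so their ratios also compare clusters. HLA-E in one unnamed cluster of low VC depth had a ratio of 0.561 (0.381 to 0.839), the only interval below 1 for a member over the 11 classes and unnamed clusters.

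**Figure D5:**
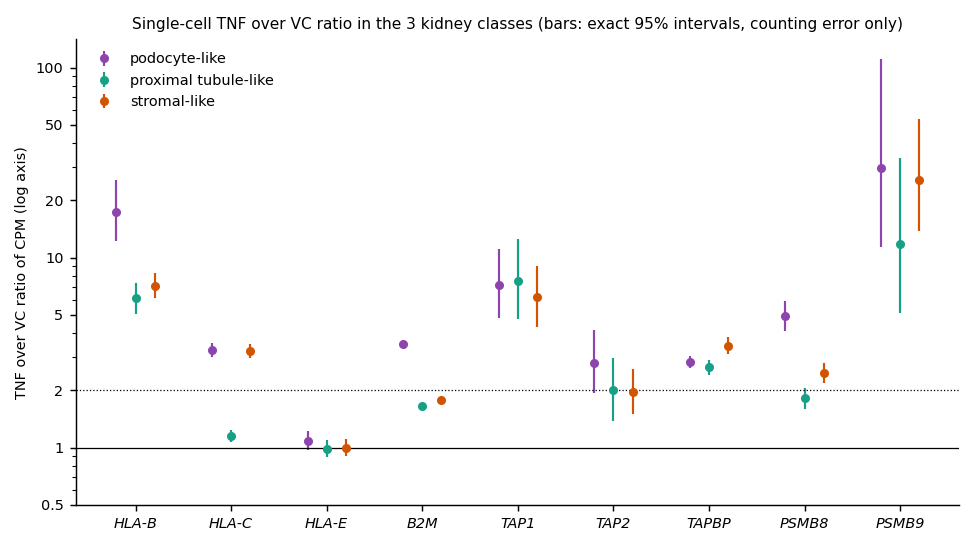
Ratio of TNFα to VC level (logarithmic vertical axis, exact 95% interval for counting error) for each member (horizontal axis) in stromal-like, podocyte-like and proximal tubule-like cells. HLA-B reaches 17.4 in podocyte-like cells against 6.11 and 7.11 in the others, and the 3 HLA-E intervals hold 1.

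Of the 7 leukocyte list genes in the single cells, PTPRC had 1 UMI in VC and 4 in TNFα, and CD3E 1 and 0. AIF1, named after its value was seen, made up most of the list sum, with 2924 UMIs in VC and 4084 in TNFα (29.1 and 44.8 CPM), and CD68 had 342 and 219. The other 3 genes, CD14, TYROBP and CD79A, had 9 to 49 UMIs per library. Summed leukocyte list levels were 13.3 and 17.1 CPM in stromal-like and 14.8 and 19.6 CPM in proximal tubule-like cells. In podocyte-like cells they were 161 and 148 CPM. There PTPRC and CD3E were at 0 UMIs in VC, CD3E alone in TNFα, and the other list genes were above 0 in both. The part of these levels in the members' ratios was not tested. IRF1 had ratios of 2.56, 5.93 and 2.93 over the 3 kidney classes, and CD74 7.08, 1.51 and 6.68. NLRC5 was seen in 7 UMIs in VC and 12 in TNFα, too few for a level by class.

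Over the 7 named classes of both libraries, 14 points, the genes outside the lists whose level followed the mean of the members most closely among 16900 genes were NFKBIA (Pearson r = 0.978), RHBDF2 (0.957), PLAAT4 (0.9505), IL3RA (0.949) and ICAM1 (0.948). NFKBIA encodes the inhibitor of NF-κB and ICAM1 an adhesion molecule. These points share 2 libraries and their depths, so the values describe likeness over this experiment and carry no test. Each gene named here was also higher in TNFα than in VC in every named class. The values thus include that step between libraries, and no value within a library was computed. NFKBIA was 82.8, 76.2 and 107 CPM in the 3 kidney classes of VC and 542, 343 and 597 CPM in TNFα. ICAM1 was 0.689, 1.59 and 3.76 CPM and then 37.4, 22.4 and 98.6 CPM.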

How the data were processed

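The members and lists were chosen with earlier results of these data known. Bulk tables were deposited by the authors as log2 values, made from reads aligned with STAR 2.7.8a to GRCh38, counted with HTSeq and scaled with voom and limma, and each table lists a different set of genes. Every value came out as log2(CPM + 1), with a fraction of a read added to each count before scaling. Whole reads were recovered for 100% of values within 0.01 reads, so counts of reads per gene serve as the depth. Bulk values given in CPM leave that fraction out. Single-cell matrices deposited by the authors hold UMI counts from Cell Ranger, given as 2.1.1 in the labels and 6.0.1 in the matrix header, and the build behind them was not settled between hg19 and hg38. Strandedness of the bulk counting was not stated.

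limma 3.58.1 (R 4.3.3) was fitted to the log2 values of each table with an eBayes trend, one mean per day in the second set and terms for time and treatment in the TNFα set, two-sided, with Benjamini-Hochberg adjustment over all genes and a threshold of 0.05. edgeR 4.0.16 and DESeq2 1.42.0 on recovered reads, median centring, no trend, a mean of at least 1 CPM, a scale without the added 1, a replicate block and leaving out each library were the alternatives. The sets were normalized separately and tested only within a table.

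Cells with more than 500 genes were kept, as in the study's methods, since the files hold no cell labels. Variable genes (2000 per library), 30 components, a Harmony correction rewritten in numpy 2.4.6, 20 neighbours and Leiden clustering (leidenalg 0.10.2, scanpy 1.11.5) at a resolution of 0.25 gave the clusters. A cluster was named where at least 3 markers of a list had 20 CPM and a log2 fold of 1 and no other list had more genes among the 10 leading genes, which left 1 cluster with 7 proliferation markers unnamed. Scrublet's own threshold marked 0 cells, so the top-scored 9.52% of VC and 18.5% of TNFα cells were marked as doublets and left out in an alternative only. Exact Poisson and conditional binomial 95% intervals cover counting error. Genes named from the lists were those called, at most the 4 with the largest change per list and comparison. On simulated data for the D29 against D21 comparison with 27650 genes, limma recovered 100 of 100 genes changed by 1 log2 unit, with 4 false calls. For the TNFα set with 21093 genes it recovered 100 of 100, with 9 false calls. A gene not called in the real data may still differ by more than 1 log2 unit. TAP1 in D25 against D21 is such a case, at 1.11 (adjusted p = 0.0647 in limma). One further single-cell sample was not analysed here. One result on the class I transcription regulators is not reported here.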

Additional observations from a re-analysis of the deposited data

Results flagged for a closer look

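Between D25 and D29 the sets of culture days moved in opposite directions for 3 members. HLA-E differed by -0.078 in the first set and 0.19 in the second, TAPBP by 0.11 and -0.14, and PSMB8 by -0.030 and 0.43, all in log2(CPM + 1). In the second set none of these passed the limma test, the first set had 1 library per day, and the difference between the sets was not tested. The sets differ in refeeding, in depth and in the genes listed, and these cannot be told apart.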

How the results depend on the processing

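All 8 TNFα calls among the members held under edgeR and DESeq2, and 6 to 8 members were called under every alternative. In D25 against D21 the 2 calls became 4 in edgeR, 4 in DESeq2, 1 without the eBayes trend and 0 to 3 when 1 library was left out. In D29 against D25 the 0 calls became 1 in edgeR, 1 in DESeq2 and 0 to 1 with a library left out. In D29 against D21 the 6 calls became 3 to 6 with a library left out, 3 being without D21 Org2. The cause of these shifts was not tested. With the replicate block the member counts were 2, 0 and 6, the same as without it, and over all genes the block gave 2091, 1118 and 6056 calls against 1486, 574 and 5081. Same-numbered libraries deviated together with correlations of 0.141, 0.0756 and 0.268, but 2 numbers per day cannot show a pairing, so the libraries share only a number. Directions turned in leave-one-out fits for HLA-C, with a range of -0.067 to 0.12 in D25 against D21 and -0.0048 to 0.18 in D29 against D25, for TAP2 in D29 against D25 (-0.15 to 0.32) and for TAPBP in D29 against D21 (-0.096 to 0.018). Of the members' log2 differences under all alternatives, 393 kept their direction and side of the threshold, 13 newly passed, 26 no longer passed and 4 turned.

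Over all genes, calls ranged from 241 to 2231 in D25 against D21, 0 to 2014 in D29 against D25, 2358 to 6056 in D29 against D21 and 638 to 4645 for TNFα, where the main count was 4061. The share of TNFα calls that were higher was 43.7% in limma and 55.2% of the 2184 calls in DESeq2. In single cells, counts at 2-fold or more kept within 1.5 times, and of the ratios 103 moved by less than their interval, 13 moved further and 1 turned, TAP2 in marker-gated proximal tubule-like cells (0.996). Leaving out a cluster of 731 TNFα cells and 1 VC cell from the podocyte-like class, an alternative chosen after seeing the data, gave HLA-C 2.60 and TAPBP 2.58. Shallow counts limit PSMB9 and NLRC5 most.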
